A study of Homo sapiens with 18 samples.

Results

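The replication-dependent histone genes were taken as every row of the expression table whose symbol begins with HIST1H, HIST2H, HIST3H or HIST4H. There were 69 such rows among 23399. By family they were 6 H1, 16 H2A, 20 H2B, 13 H3 and 14 H4 genes, and by cluster 55 lay in HIST1, 10 in HIST2, 3 in HIST3 and 1 in HIST4. The row HIST1H2APS1 is a pseudogene by its name. The cells were U2OS, a human osteosarcoma line, engineered to express MycER, a fusion of Myc with the estrogen receptor that OHT (4-hydroxytamoxifen) switches on. They received siRNAs against RAD21, a subunit of cohesin (siRAD21), or against Renilla luciferase (siCtrl), with 400 nM OHT or without it, for 24 or 48 h. All groups carried MycER, all were transfected, and the cells came from a single line, so the model is 1 cancer line with an inducible transgene. Of the 18 RNA-seq libraries, siCtrl and siCtrl OHT had 3 each at 48 h, and siCtrl and siCtrl OHT at 24 h, siRAD21 and siRAD21 OHT at 24 h and siRAD21 and siRAD21 OHT at 48 h had 2 each.

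Canonical histone genes supply the proteins that package DNA as it is copied: H2A, H2B, H3 and H4 form the core of the nucleosome, and H1 binds the linker DNA between nucleosomes. Their genes have no introns and sit in clusters, and their mRNAs rise in S phase and decay when DNA synthesis stops. Most of these mRNAs end in a conserved stem-loop that SLBP binds instead of a poly(A) tail. Some members are also known to give polyadenylated transcripts. The study asked how cohesin loss and Myc activation act together on transcription and DNA replication, and the canonical histone genes are expressed with replication.

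The stem-loop is shown because it defines the class. The 150 bases that follow the end of the annotated coding sequence (GENCODE 44 on GRCh37) were searched in the 63 members that have one. A stem-loop was found in 62. The search allowed only limited departures from a consensus, so the likeness of the 10 forms found was set by the search. The commonest was in 35 members, of the H1, H2A, H2B and H3 families. Of the 13 H4 genes with a match, 9 carried the second form. The third form was in 9 members, none of them H4. Stem bases are in capitals and loop bases in lower case:
35 members: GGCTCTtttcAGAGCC
9 members, all H4: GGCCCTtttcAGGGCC
9 members, none H4: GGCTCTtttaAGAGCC
HIST1H2AE had the first form on the plus strand at chr6:26217645-26217660 (GRCh37), in its 3′ UTR and 53 bases past the end of its annotated coding sequence. HIST1H4I had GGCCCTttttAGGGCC at chr6:27107433-27107448 on the plus strand. None was found for HIST2H2BF. Its search began at the stop codon of a transcript of 2 exons that spans chr1:149754245-149783928 (GRCh37). Other transcripts of the gene were not searched, so a stem-loop there would have been missed.

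Promoters of 300 bases (250 before to 50 after the start, RefSeq, GRCh38.p14) were matched for 61 members. The letters CCAAT, searched on both strands, occurred in 52 of them (85.2%), against 34.6% of all 35116 promoters of that length. TATAAA, also on both strands, occurred in 65.6% of members and 11.5% of all promoters. The octamer ATTTGCAT, on both strands, occurred in 42.6% of members and 1.8% of all. The families differed: the octamer was in 78.6% of the 14 H2A and 77.8% of the 18 H2B promoters, in 9.1% of the 11 H3 promoters (1, that of HIST1H3D) and in none of the 6 H1 or 12 H4 promoters. The window of HIST1H3D is the same as that of HIST1H2AD, an H2A gene, so it counts in both families, and the 61 windows are 60 distinct ones. The GENCODE transcript used for HIST1H3D lies elsewhere (chr6:26197012-26197514, GRCh37, minus strand), so the octamer of its window rests on the RefSeq start. Windows of divergent H2A and H2B genes also overlap, as those of HIST1H2BG (chr6:26216639-26216938) and HIST1H2AE (chr6:26216671-26216970). With both strands searched, 1 motif can count for both genes of a pair, so the H2A and H2B shares are not independent. CCAAT was in every H1, H2A, H2B and H3 promoter but in 3 of the 12 H4 promoters. CACGTG, the E-box letters that Myc is known to bind, was in 0 of the 61 windows and in 7.3% of all promoters. That count says only that those letters are not in these windows. The 4 promoters below belong to members whose levels are described next: HIST1H2BG, which fell most upon RAD21 silencing, HIST1H2BA, which rose most with OHT, HIST2H2BE, which fell and stayed low with OHT, and HIST1H4I, an H4 gene that fell and rose. Capitals mark the CCAAT letters, the TATA letters and the octamer, on either strand, and they are from chr6:26216639-26216938 (minus strand), chr6:25726527-25726826 (plus strand), chr1:149886633-149886932 (minus strand) and chr6:27139032-27139331 (plus strand):
HIST1H2BG: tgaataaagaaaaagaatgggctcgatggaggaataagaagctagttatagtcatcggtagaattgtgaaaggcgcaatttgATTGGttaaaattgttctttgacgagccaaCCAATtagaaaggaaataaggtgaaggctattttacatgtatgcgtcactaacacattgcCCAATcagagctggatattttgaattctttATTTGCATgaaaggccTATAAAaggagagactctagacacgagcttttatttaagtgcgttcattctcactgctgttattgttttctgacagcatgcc
HIST1H2BA: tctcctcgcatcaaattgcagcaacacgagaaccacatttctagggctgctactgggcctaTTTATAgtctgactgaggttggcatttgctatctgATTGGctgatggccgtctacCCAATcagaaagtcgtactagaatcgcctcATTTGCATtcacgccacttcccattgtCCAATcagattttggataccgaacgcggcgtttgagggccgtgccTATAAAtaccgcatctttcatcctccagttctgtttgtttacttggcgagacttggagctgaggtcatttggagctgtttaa
HIST2H2BE: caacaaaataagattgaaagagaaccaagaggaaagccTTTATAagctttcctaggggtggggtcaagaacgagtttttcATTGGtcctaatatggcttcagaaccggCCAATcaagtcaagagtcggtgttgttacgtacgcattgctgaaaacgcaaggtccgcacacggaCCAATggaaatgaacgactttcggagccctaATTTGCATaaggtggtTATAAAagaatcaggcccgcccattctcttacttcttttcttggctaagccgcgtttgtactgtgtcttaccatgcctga
HIST1H4I: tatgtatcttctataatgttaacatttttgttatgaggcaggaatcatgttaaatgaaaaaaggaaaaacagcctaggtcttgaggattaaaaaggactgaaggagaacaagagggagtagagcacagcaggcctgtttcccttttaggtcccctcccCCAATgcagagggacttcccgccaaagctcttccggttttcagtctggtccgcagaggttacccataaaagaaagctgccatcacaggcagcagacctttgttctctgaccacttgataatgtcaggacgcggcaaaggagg
The first 3, all H2B promoters, hold all 3 motifs, and the H4 promoter holds CCAAT only.

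The deposited values were eRPKM, reads scaled to exon length and library depth (RPKM over exons). Whole reads could be recovered from them, which gave depths of 9647501 to 12678599 reads. The 24 h libraries were deeper (10941845 to 12678599 reads) than the 48 h libraries (9647501 to 10912005 reads). RAD21 itself was at 66.4 to 96.9 eRPKM in the 10 siCtrl libraries and at 11.1 to 18.6 in the 8 siRAD21 libraries. VIM (105 to 129 eRPKM), SPARC and COL1A1 were present, while COL1A2, also a mesenchymal marker, reached only 0.109. RUNX2 was at 1.9 to 8.5 eRPKM. Among markers of other cell types, EPCAM was at 2.56 to 12.9 and CDH1 at 0.559 to 1.74, and PTPRC and PECAM1 stayed under 1. The 2 siRAD21 OHT libraries at 48 h did not differ beyond the sampling noise of their reads (chi-square per gene 0.988 over 10039 genes, z = -0.87; 1.04 to 3.84 for the other pairs of libraries in a group), so they are counted as 1 sample in group means. The fits used both, and with them averaged into 1 the called members were 9 rather than 10 for OHT in siRAD21 cells at 48 h and 5 in both cases for the interaction.

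A property of the values bears on every histone level. With PCR duplicates removed, a 50-base single read can start only once at each position and strand, so no more than 2 reads per exon base can remain. That sets a limit of 157.7 to 182.8 eRPKM in the 24 h libraries and 183.3 to 207.3 eRPKM in the 48 h libraries. HIST1H1C, the most abundant member, reached 87.8% of it. Of the 126 genes in the table whose mean was at least 50% of the limit, 23 (18.3%) were members. Differences of such genes are compressed, and their levels follow the depth of the library. The fits below were therefore also run after undoing the limit by the expected loss of duplicates, and those values are given where they change a count. That correction takes read starts as spread evenly over the exon length implied by the values, which was not tested. For HIST1H3H, HIST1H3D and HIST1H2BK this length (2338, 921 and 839 bases) exceeds the annotated one (1250, 503 and 495). Where reads sit on a shorter stretch, the percent of the limit and the correction are too small.

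The 69 members ranged from nearly silent to among the most abundant genes of the table. The mean over all libraries was 100 eRPKM or more for 22 members, 10 to 100 for 15, 1 to 10 for 10 and under 1 for 22. Those last 22 were not tested, so 47 members were: 4 H1, 12 H2A, 15 H2B, 6 H3 and 10 H4 genes. The highest means were HIST1H1C among H1 genes (156 eRPKM), HIST1H3B among H3 genes (150), HIST1H2AG among H2A genes (144), HIST1H2BC among H2B genes (134) and HIST1H4H among H4 genes (133). The ranges of these 5 over the libraries overlap (136 to 174 eRPKM for HIST1H1C and 109 to 154 for HIST1H4H), and all lie above 50% of the limit, so their order is not established.

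Put in order along the chromosome, 20 of the 22 members with a mean under 1 eRPKM stood in runs of 3 to 7 members. That order ignores distance: HIST2H2BA, at chr1:120906101-120916112, directly precedes HIST2H2BF, at chr1:149754245-149783928 (GRCh37). The exceptions, HIST1H2APS1 and HIST2H2AA4, stood alone between expressed members. Between HIST1H3E (21.9 eRPKM) and HIST1H4H (133 eRPKM), 7 consecutive genes from HIST1H1D to HIST1H2BI had means of 0.01 to 0.20 eRPKM. Further on, 5 consecutive genes from HIST1H2AL to HIST1H3J had means of 0.02 to 0.21, next to HIST1H2BN at 81.7 eRPKM. Each run mixed families: the first holds H1, H2B, H3 and H4 genes and the second H1, H2A, H3 and H4 genes. The 3 genes of the HIST3 cluster, HIST3H3, HIST3H2A and HIST3H2BB, had means of 0.149 to 0.281 eRPKM. All of these silent HIST1 genes but HIST1H4F, which could not be located on GRCh37, have exons in which at least 96.8% of 50-base stretches are unique in the genome, as for HIST1H1D and HIST1H1B at 100%. In the HIST2 cluster this was otherwise: HIST2H2AA4 and HIST2H3C had 0%, HIST2H4A 5.2%, HIST2H3D 21.4% and HIST2H2BF 22.6% unique stretches. With so few, their low levels are uncertain. The same holds among tested members for HIST1H4J (7.9%), HIST1H4K (7.4%), HIST2H2BC (20.3%), HIST1H2AJ (33.7%) and HIST1H2BK (42.8%).

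**Figure D1:**
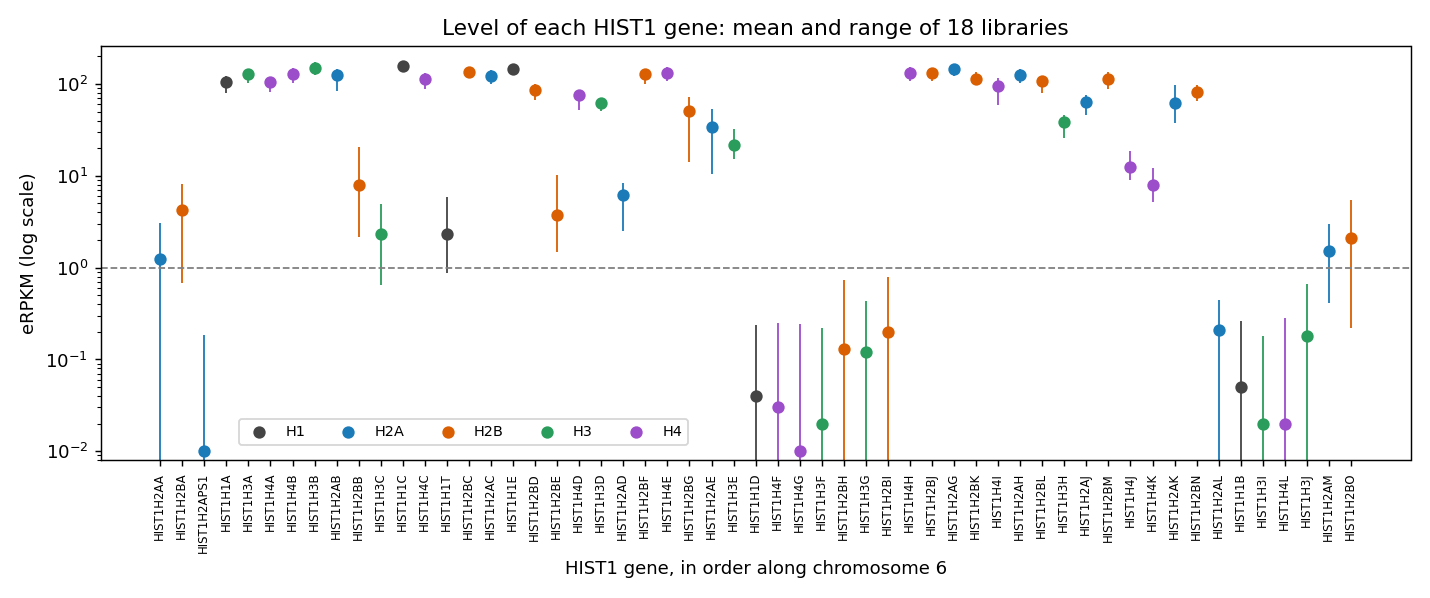
Mean eRPKM (points, log scale) and range over the 18 libraries (lines) of each HIST1 gene, in its order along chromosome 6, coloured by family. The dashed line is the minimum mean of 1 eRPKM for the tests, and values below the axis, including 0, are drawn down to its lower edge. Runs of 7 and 5 neighbouring genes lie under the line.

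At 48 h of RAD21 silencing, most histone mRNAs were lower, in all 5 families. Of 47 tested members, 11 fell and 1 rose (adjusted p under 0.05 and a log2 difference past 0.5 on the log2(eRPKM + 0.5) scale, limma). This is 23.4% lower and 2.13% higher, against 11.2% lower and 12.6% higher of all 14993 genes tested. By the adjusted p alone, without the fold threshold, 37 members were lower and 1 higher, against 30.5% lower and 27.2% higher of all genes. The sign was negative in 43 of 47 members, and the median log2 difference was -0.34, against -0.01 over all genes. By family, 4 of 12 H2A, 4 of 15 H2B, 1 of 6 H3, 2 of 10 H4 and 0 of 4 H1 genes fell. The family medians were -0.19 for H1, -0.30 for H3, -0.34 for H4, -0.37 for H2A and -0.42 for H2B. With duplicates accounted for, 25 members fell, 1 rose and the median was -0.52, against 12.1% lower and 13.2% higher of all 14765 genes tested on that scale. Fewer cells in S phase and less histone mRNA per cell cannot be told apart in these bulk samples.

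HIST1H2BG, an H2B gene, fell most. Its levels at 48 h were 39.7, 48.9 and 40.6 eRPKM in the siCtrl libraries and 16.3 and 14.1 in the siRAD21 libraries. The groups were far apart, with a log2 difference of -1.47 ± 0.0866 (SE, adjusted p = 7.04e-09). HIST1H2AE, an H2A gene whose start site lies 233 bases from that of HIST1H2BG on the opposite strand, gave 23.8, 24.6 and 24.2 eRPKM against 10.4 and 12.2. It fell by 1.07 ± 0.0953 on the log2 scale (SE, adjusted p = 3.9e-07). HIST1H2AE is a single-exon gene at chr6:26217149-26217665 (GRCh37, plus strand). HIST1H2AD, a low-level H2A gene at chr6:26199012-26199521 (GRCh37, minus strand, 1 exon), was at 8.45, 6.46 and 6 eRPKM against 2.52 and 3.84, a difference of -1.03 ± 0.171 (SE, adjusted p = 0.000145).

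The other members that fell were HIST1H2AB, HIST2H2AC, HIST2H2BC, HIST1H3H, HIST1H4I and HIST4H4, between -0.51 and -0.61, along with HIST2H2BE and HIST1H2BA. HIST2H2BC, counted with the H2B genes, is annotated as a processed pseudogene and has 20.3% unique stretches. HIST4H4, the only member of its cluster (chr12:14923654-14924065, GRCh37, minus strand, 1 exon), had 94.2, 91.4 and 92.5 eRPKM in siCtrl and 56.1 and 67.1 in siRAD21 cells (-0.59 ± 0.0876, SE, adjusted p = 5.2e-05). Without the siRAD21 library of replicate 1 its difference was -0.46 and it was not called. HIST1H2BA, a testis-type H2B gene, was at 2.11, 1.6 and 2.12 eRPKM against 1.26 and 0.673, on 26 reads in the siCtrl and 9 in the siRAD21 group. Its difference of -0.76 ± 0.259 (SE, adjusted p = 0.0217) was not called with the replicate number as a block (-0.66), nor when siCtrl replicate 1, siCtrl replicate 3 or siRAD21 replicate 2 was left out. The ratio of its summed reads, 9 against 26, was 0.501 (exact 95% counting interval 0.206 to 1.1).

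One member rose. HIST1H2BB, an H2B gene at chr6:26043455-26043941 (GRCh37, minus strand, 1 exon), was at 3.33, 2.55 and 2.15 eRPKM in siCtrl and 4.47 and 5.91 in siRAD21 cells at 48 h, a log2 difference of 0.85 ± 0.187 (SE, adjusted p = 0.00149). Its reads were 35 in 3 siCtrl libraries and 47 in 2 siRAD21 libraries.

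**Figure D2:**
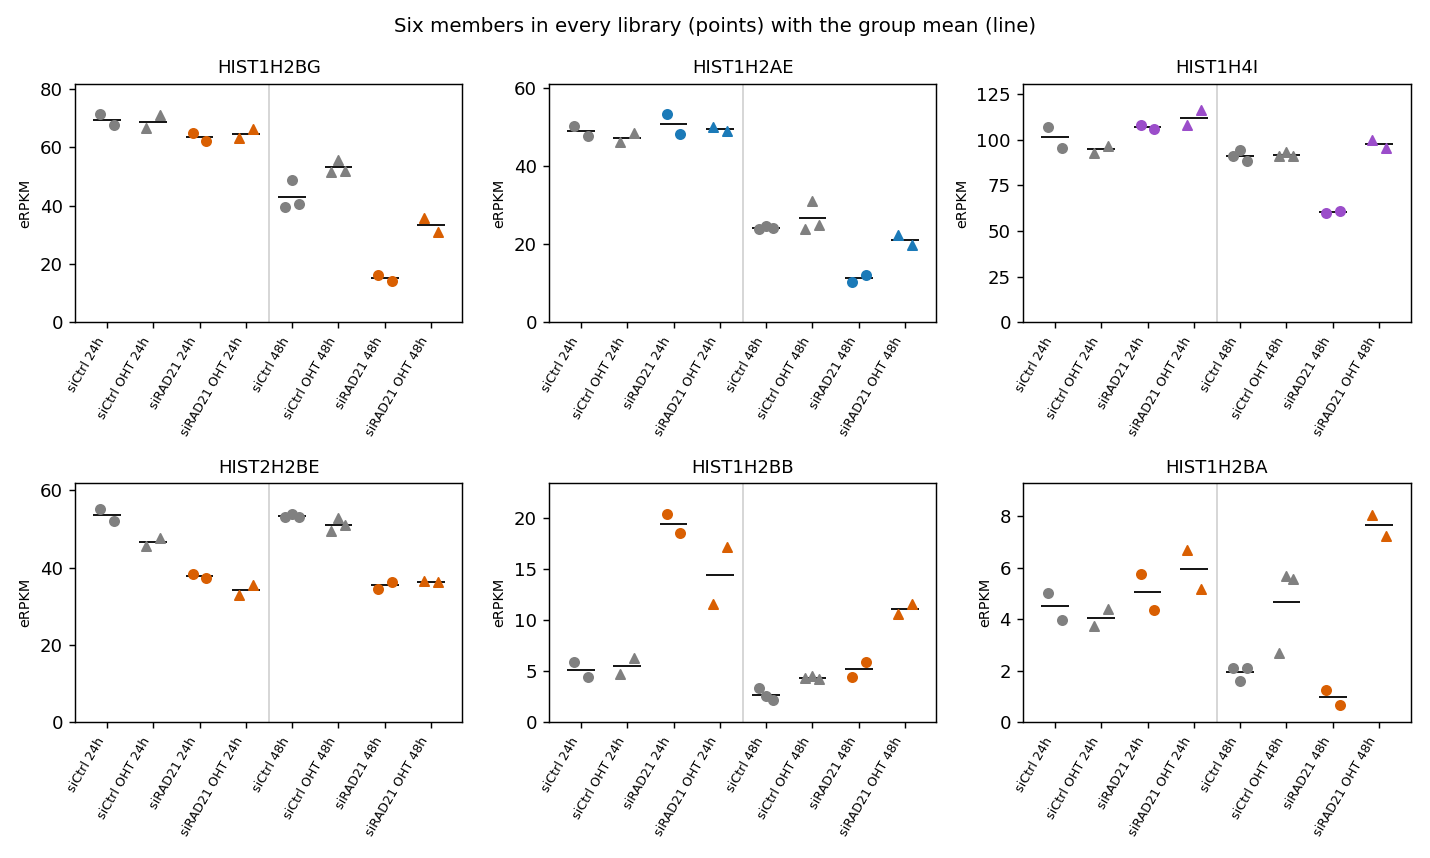
eRPKM of 6 members in every library (grey for siCtrl, coloured for siRAD21; circles without OHT, triangles with OHT), with the group mean as a line, 24 h on the left and 48 h on the right of each panel. HIST1H2BG, HIST1H2AE and HIST1H4I were lowest in siRAD21 cells at 48 h, HIST2H2BE was lower in siRAD21 cells in every group, and HIST1H2BB was highest in siRAD21 cells at 24 h.

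After 24 h of RAD21 silencing no member fell and 4 rose, 8.51% of the 47, against 5.83% higher and 2.6% lower of all genes. The 4 were low-level genes of 3 families: HIST1H2BB, HIST1H2BE, HIST1H1T and HIST1H3C. HIST1H2BB was at 5.94 and 4.39 eRPKM in siCtrl and 20.4 and 18.6 in siRAD21 cells, a log2 difference of 1.83 ± 0.205 (SE, adjusted p = 2.01e-05). HIST1H1T, the testis H1 gene, gave 1.64 and 0.87 eRPKM against 4.71 and 5.9, on 21 reads against 96 (1.75 ± 0.255, SE, adjusted p = 0.000182). HIST1H3C was at 0.996 and 1.03 against 4.6 and 2.94 eRPKM, with 11 and 43 reads. The 2 groups did not overlap for these 3 genes, which adds nothing to calls made on the same libraries. The share of all genes without overlap was not counted. The median of all members was -0.03. HIST2H2BE was lower at 24 h too, at 55.1 and 52.2 eRPKM in siCtrl and 38.4 and 37.2 in siRAD21 cells, with a difference of -0.498 ± 0.0475 (SE, adjusted p = 5.29e-06) that just missed the fold threshold. With duplicates accounted for, it was -0.58 and called.

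The effect of silencing at 48 h was compared with that at 24 h within the same fit. It was more negative in 46 of 47 members, with a median of -0.34, and 10 members passed the test, all lower. That is 21.3% of members, against 6.86% lower and 3.85% higher of all genes. The 10 were HIST1H1T, HIST1H2AD, HIST1H2AE, HIST1H2AK, HIST1H2BB, HIST1H2BG, HIST1H3C, HIST1H3E, HIST1H4I and HIST2H2BC, the last an annotated pseudogene. The count was 6 without siCtrl replicate 2 or without siRAD21 replicate 1 at 24 h, and 22 with duplicates accounted for, all lower, against 7.41% lower and 4.36% higher of all genes. Culture time alone, siCtrl at 48 h against 24 h, gave 7 lower members (14.9%, against 6.91% lower and 5.53% higher of all genes) and 0 higher ones. They were HIST1H2AE, HIST1H2BA, HIST1H2BB, HIST1H2BE, HIST1H2BG, HIST1H4J and HIST1H4K. With duplicates accounted for, 8 were lower and 0 higher, and the share of all genes on that scale was not computed. HIST1H2AE was at 50.1 and 47.5 eRPKM at 24 h and between 23.8 and 24.6 at 48 h, and HIST1H2BG went from 71.5 and 67.5 to 39.7, 48.9 and 40.6. Time was confounded with depth here, and its part was not tested. Whether the libraries of both times were aligned and counted with the same settings is not given in the sources used here. It bears on every comparison of 48 h with 24 h, since HIST2H3C, with 0% unique stretches, had 105 reads in the 24 h and 2 in the 48 h libraries. HIST1H4J and HIST1H4K, among the 7, also have few unique stretches (7.9% and 7.4%).

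With OHT, most histone mRNAs were higher in siRAD21 cells at 48 h. Of the 47 members, 10 rose and none fell, 21.3% against 12.4% higher and 16.2% lower of all genes. The sign was positive in 44 of 47, with a median of 0.32 (all genes -0.02). By family 3 of 12 H2A, 3 of 15 H2B, 2 of 10 H4, 1 of 6 H3 and 1 of 4 H1 genes rose, and the family medians were 0.26 for H2B, 0.27 for H1, 0.32 for H3, 0.34 for H2A and 0.34 for H4. With duplicates accounted for, 17 rose, none fell and the median was 0.43, against 13.5% higher and 16.8% lower of all genes. This comparison shares its siRAD21 libraries with the silencing comparison, so low values in them would move both, in opposite directions. Cell type markers moved in the same comparison. Of 4 tested mesenchymal and osteoblast markers COL1A1 (-1.84) and RUNX2 (-1.33) fell, and of 2 tested markers of other cell types EPCAM (1.05) rose. The summed level of the first list (5 genes) was 266 to 267 eRPKM in siRAD21 and 213 to 216 in siRAD21 OHT libraries at 48 h, and that of the second (5 genes) 4.44 to 5.86 and 8.36 to 8.5. OHT in siCtrl cells at 48 h gave calls of the same sign for these 3 genes (-0.91, -0.83 and 1.22). The part of these markers in the histone values was not tested.

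HIST1H2BG rose from 16.3 and 14.1 to 35.6 and 31.1 eRPKM, a difference of 1.11 ± 0.0948 (SE, adjusted p = 2.94e-07), and stayed below the siCtrl libraries, the lowest of which was 39.7. HIST1H2AE rose from 10.4 and 12.2 to 22.4 and 19.7 eRPKM (0.87 ± 0.104, SE, adjusted p = 7.38e-06). HIST1H4I, an H4 gene, went from 59.7 and 61.2 to 99.9 and 95.5 eRPKM (0.69 ± 0.0539, SE, adjusted p = 1.3e-07), above the siCtrl values of 91, 94.5 and 88.2. HIST1H4I lies at chr6:27107061-27107457 (GRCh37, plus strand, 1 exon). HIST2H2BE did not follow: it was at 34.6 and 36.3 eRPKM in siRAD21 cells, 36.5 and 36.3 with OHT, and 53.1, 53.9 and 53 in siCtrl cells. Its change with OHT was 0.04 ± 0.0475 (SE, adjusted p = 0.508). HIST2H2BE lies at chr1:149856009-149858232 (GRCh37, minus strand) with a single exon of 2224 bases.

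The largest rises were of 3 low-level genes. HIST1H2BA and HIST1H2AA, testis-type genes whose starts lie 215 bases apart on opposite strands, were at 1.26 and 0.673 and at 0.183 and 0.392 eRPKM in siRAD21 cells, and at 8.06 and 7.22 and at 2.28 and 3.06 eRPKM with OHT. HIST1H2BA rose by 2.50 ± 0.284 (SE, adjusted p = 4.54e-06) and HIST1H2AA by 2.01 ± 0.394 (SE, adjusted p = 0.000557). The ratios of summed reads were 7.83 (65 against 9, exact 95% counting interval 3.88 to 17.9) and 9.4 (26 against 3, 2.88 to 48.5). These intervals cover counting error only. HIST1H3C, an H3 gene, rose from 1.4 and 0.641 to 3.61 and 3.11 eRPKM (1.39 ± 0.307, SE, adjusted p = 0.00141).

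In siCtrl cells, OHT at 48 h changed 5 members: 4 rose (8.51%, against 7.78% higher of all genes) and 1 fell (2.13%, against 10.1% lower). The 4 were HIST1H2BA, HIST1H2AA, HIST1H2BB and HIST1H3C, and the median of all members was 0.03. HIST1H2BA was at 2.11, 1.6 and 2.12 eRPKM without OHT and 2.68, 5.69 and 5.57 with it (1.02 ± 0.232, SE, adjusted p = 0.00206). The lowest OHT library, at 2.68, was near the siCtrl ones. HIST1H2AA rested on 6 and 17 reads and was not called when siCtrl replicate 3, siCtrl OHT replicate 1 or siCtrl OHT replicate 3 was left out (0.54 to 0.86). HIST1H2AK, an H2A gene at chr6:27805658-27806153 (GRCh37, minus strand, 1 exon), fell from 56, 66.5 and 57.6 to 37.4, 41.7 and 40.1 eRPKM, by 0.59 ± 0.071 (SE, adjusted p = 9.96e-06). HIST1H2BG was at 51.6, 55.7 and 52 eRPKM with OHT, a difference of 0.30 ± 0.0774 that did not pass the fold threshold.

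The interaction of siRNA and OHT at 48 h compares those 2 effects of OHT directly. It was positive in 44 of 47 members, with a median of 0.30 (0.02 over all genes), and 5 members passed, all higher (10.6%, against 3.33% higher and 3.97% lower of all genes). The 5 were HIST1H2BA (1.48 ± 0.367, SE, adjusted p = 0.0134), HIST1H2BG (0.81 ± 0.122, SE, adjusted p = 0.000624), HIST1H2AK (0.81 ± 0.112, SE, adjusted p = 0.000334), HIST1H2AE (0.75 ± 0.135, SE, adjusted p = 0.00206) and HIST1H4I (0.68 ± 0.0696, SE, adjusted p = 3.79e-05). HIST1H4I rose in RAD21-depleted cells, while in siCtrl cells it was at 91.3, 93 and 91.3 eRPKM with OHT, a difference of 0.01 ± 0.044 (SE). HIST1H2AK came to the same list from the other side, since OHT lowered it in siCtrl cells and it was at 46.2 and 48.4 without and 55.8 and 54.5 eRPKM with OHT in siRAD21 cells. The call for HIST1H2BA was lost when siRAD21 replicate 2 or siRAD21 OHT replicate 1 was left out. With duplicates accounted for, 11 members passed, all higher, against 3.61% higher and 4.29% lower of all genes.

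**Figure D3:**
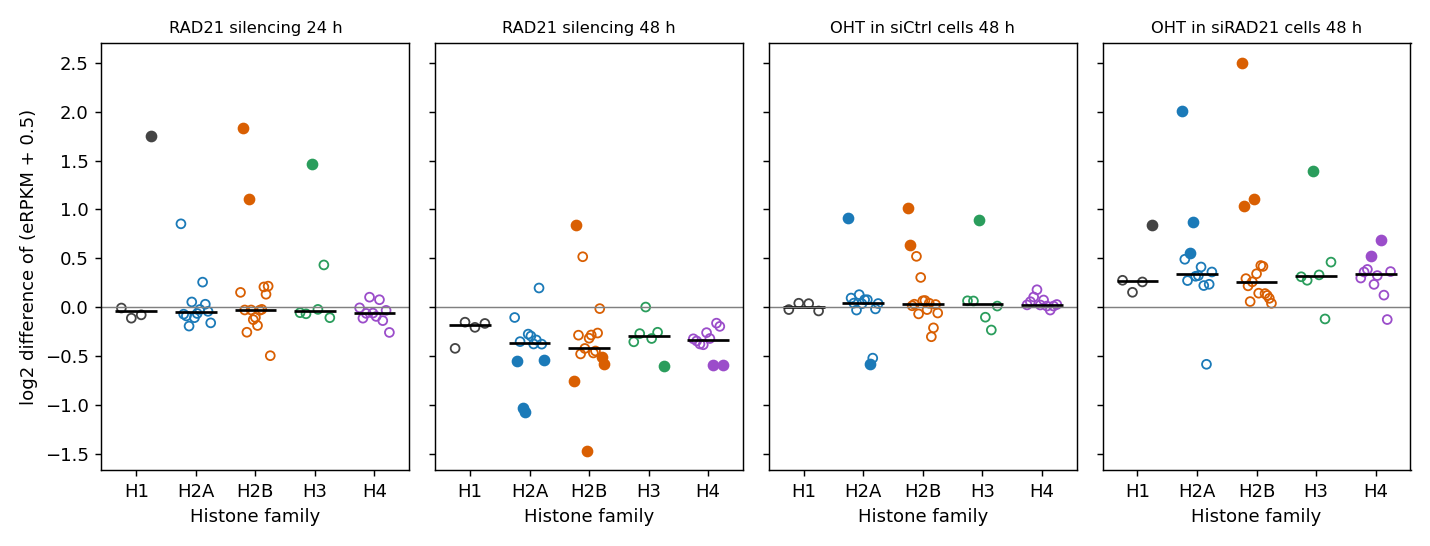
log2 difference of (eRPKM + 0.5) of the 47 tested members by family in 4 comparisons, with the family median as a line and called members filled. The medians are near 0 for RAD21 silencing at 24 h and OHT in siCtrl cells at 48 h, below 0 for RAD21 silencing at 48 h and above 0 for OHT in siRAD21 cells at 48 h, in all 5 families.

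At 24 h, OHT changed few members. In siCtrl cells 0 of 47 were called, with 7 at an unadjusted p under 0.05 (3.68% higher and 5.1% lower of all genes were called). In siRAD21 cells 1 member fell, HIST1H2BE, from 10.1 and 8.38 to 3.76 and 5.4 eRPKM (-0.95 ± 0.276, SE, adjusted p = 0.0159), or 2.13% of members against 7.62% lower and 4.29% higher of all genes. With the replicate number as a block 2 fell. In siRAD21 OHT against siCtrl cells, 3 members were higher and 1 lower at 24 h (6.38% and 2.13%, against 6.62% and 6.51% of all genes), and 5 higher and 1 lower at 48 h (10.6% and 2.13%, against 13.1% and 14.9%). The member that was lower at both times was HIST2H2BE, by 0.65 ± 0.0475 at 24 h and 0.54 ± 0.0433 at 48 h (log2, SE). The median of all members at 48 h was -0.03 in this comparison.

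Summed over a family, levels could be compared with no filter on single genes. At 48 h the summed eRPKM of all members was 3717 to 3959 in siCtrl, 3780 to 4043 in siCtrl OHT, 2862 to 3103 in siRAD21 and 3679 to 3771 in siRAD21 OHT libraries. The siRAD21 libraries lay under all others of that time. At 24 h the sums were 3476 to 3971 in siCtrl and 3544 to 3651 in siRAD21 libraries, and overlapped. The H2B sum was 1052 to 1122 in siCtrl, 797.9 to 850.8 in siRAD21 and 1004 to 1040 in siRAD21 OHT libraries at 48 h. For H1 genes the same groups had 419 to 441.5, 353.5 to 381.2 and 426.6 to 430.7. The share of reads in all members was 0.206% to 0.219% in siCtrl and 0.158% to 0.17% in siRAD21 libraries at 48 h. Sums are dominated by genes near the duplicate limit, so they understate differences.

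**Figure D4:**
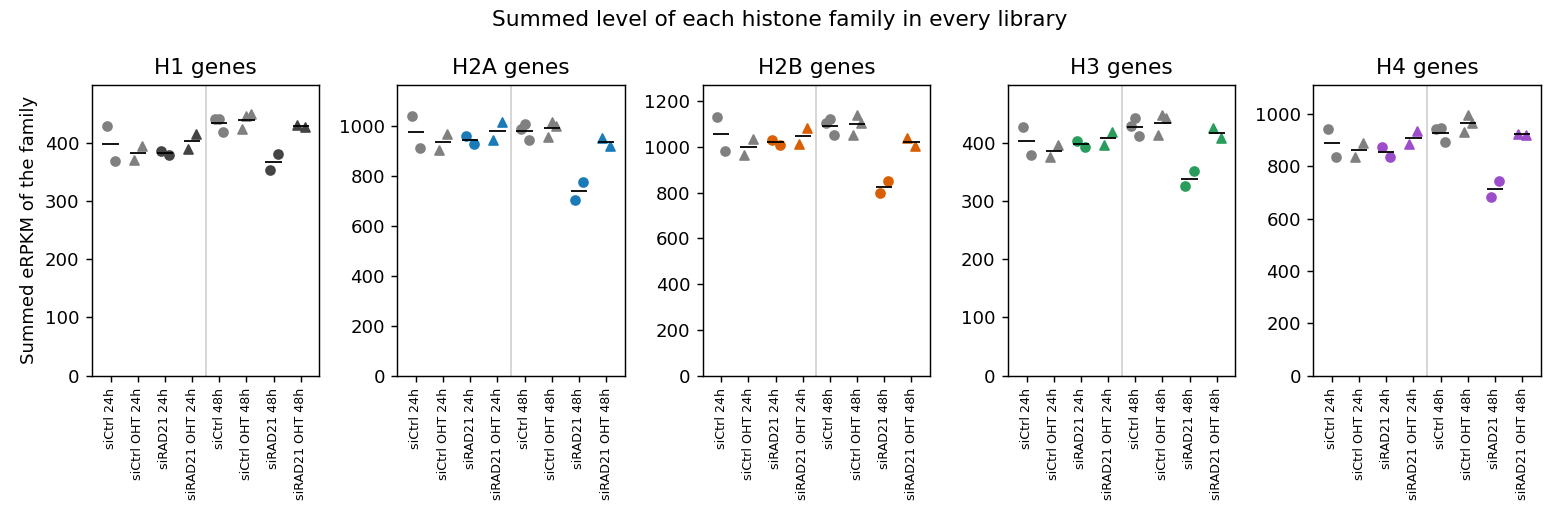
Summed eRPKM of the members of each family in every library (grey for siCtrl, coloured for siRAD21; circles without OHT, triangles with OHT; lines are group means), 24 h left and 48 h right. In each family the 2 siRAD21 libraries at 48 h were the lowest of that time.

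The range of the deposited differences was narrower towards the limit on duplicates. Among the 12 tested members under 10% of the limit, differences upon RAD21 silencing at 48 h ran from -1.03 to 0.85, among the 12 at 10 to 50% from -1.47 to -0.26, and among the 23 at 50% or more from -0.59 to -0.16. The medians were -0.14, -0.43 and -0.35, nearest to 0 for the members lowest in level. In the last group 3 of 23 fell as deposited, and the median moved from -0.35 to -0.54 with duplicates accounted for. For OHT in siRAD21 cells the median of these 23 moved from 0.31 to 0.45. HIST1H2BG, at 28.3% of the limit on average, moved little, from -1.47 to -1.58 upon silencing. HIST1H2AB, at 67.6%, moved from -0.55 to -0.83, and HIST2H2AC, at 68.3%, from -0.55 to -0.86. The most abundant member of each family was also listed: HIST1H1C gave -0.16 ± 0.0627, HIST1H3B -0.27 ± 0.0594, HIST1H2AG -0.28 ± 0.055, HIST1H2BC -0.29 ± 0.0635 and HIST1H4H -0.32 ± 0.051 (log2, SE) upon RAD21 silencing at 48 h.

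Divergent neighbours mostly had differences of the same sign. There were 12 pairs of genes that point away from each other with RefSeq start sites within 1000 bases. HIST1H2BF counts in 2 of them, with HIST1H2AD and HIST1H3D, which share a RefSeq start site. The GENCODE transcripts used place those 2 genes apart, at chr6:26199012-26199521 and chr6:26197012-26197514 (GRCh37). In 10 of the 12 pairs both genes were tested. In 9 of these 10 both genes were negative upon RAD21 silencing at 48 h, which sets them beside the 43 of 47 members that were negative. HIST1H2BG and HIST1H2AE gave -1.47 and -1.07, HIST2H2BE and HIST2H2AC -0.58 and -0.55, HIST1H2BJ and HIST1H2AG -0.32 and -0.28, and HIST1H2AD and HIST1H2BF -1.03 and -0.42. Partners also differed. With OHT in siRAD21 cells HIST2H2AC was at 0.36 and HIST2H2BE at 0.04. In levels, HIST1H2AD had a mean of 6.14 eRPKM and HIST1H2BF, 223 bases away, 128.

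Members with known polyadenylated transcripts were listed separately, since part of their mRNA does not end in the stem-loop. Of the 7 (HIST1H1C, HIST1H2AC, HIST1H2BC, HIST1H2BD, HIST1H2BK, HIST2H2BE and HIST2H2BF), 6 were tested, as HIST2H2BF was at 0.241 to 1.69 eRPKM. Upon RAD21 silencing at 48 h 1 of 6 fell, HIST2H2BE, beside 11.2% lower of all genes, and the median was -0.32. HIST1H2BD was at -0.48 ± 0.0593, HIST1H2AC at -0.35 ± 0.0648 and HIST1H2BK at -0.29 ± 0.0613 (log2, SE). With OHT in siRAD21 cells none of the 6 was called, beside 12.4% higher of all genes, with a median of 0.18 against 0.32 over all 47 members.

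Genes that act around histone mRNAs were counted in the same fits. Of all genes, 11.2% were lower and 12.6% higher upon RAD21 silencing at 48 h. With OHT in siRAD21 cells at 48 h, 12.4% were higher and 16.2% lower. Of 5 genes of histone gene transcription, CDK2 (-0.56), CCNE1 (-0.76) and CCNE2 (-1.14), the kinase and cyclins that phosphorylate NPAT, fell upon RAD21 silencing at 48 h, and the other two were NPAT and CASP8AP2. CCNE1 rose by 0.89 with OHT in siRAD21 cells. Of 10 genes of 3′ end processing, 1 fell upon silencing (CSTF2, -0.52). With OHT in siRAD21 cells 3 rose: SLBP (0.68), which binds the stem-loop, LSM10 (0.67), a part of the U7 snRNP, and CSTF2 (0.62). In siCtrl cells at 48 h, 1 of the 10 was called higher with OHT, beside 7.78% of all genes. Group means there without and with OHT were 22.2 and 40.9 eRPKM for LSM10, 35 and 41.6 for SLBP, and 33.4 and 40.9 for CSTF2. None of the 4 genes of histone mRNA decay, ERI1, UPF1, ZCCHC11 and LSM1, was called in either comparison. Of 16 chaperones, 4 fell: CHAF1B (-1.56) and CHAF1A (-1.10), subunits of the replication-coupled assembly factor CAF-1, RBBP4 (-0.59), also a CAF-1 subunit, and ASF1B (-0.72), an H3 and H4 chaperone. CHAF1A (0.86) and CHAF1B (1.00) rose with OHT.

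Of 14 S phase genes, 10 fell upon silencing at 48 h, with a median of -0.66, against 11.2% lower of all genes. With OHT in siRAD21 cells 7 rose, with a median of 0.55, against 12.4% higher of all genes. MCM6, a subunit of the replicative helicase, was at 26.9 eRPKM in siCtrl, 14.8 in siRAD21 and 34 in siRAD21 OHT cells at 48 h (group means). E2F1 fell by 0.86 on the log2 scale and rose by 0.73. None of the 14 was called at 24 h of silencing, when 5.83% of all genes were higher and 2.6% lower. Of 12 genes listed as replication-independent histones, which are made outside S phase too, 3 fell upon silencing at 48 h: H2AFX (-0.61), H2AFY (-0.60) and H2AFY2 (-0.60). H2AFY2 fell further with OHT in siRAD21 cells (-0.83), while the median of the list was -0.31 upon silencing. The stem-loop was not searched for in these genes, so whether each, H2AFX included, lacks it is not shown here. As a comparison for RNAs that also lack a poly(A) tail, 8 of 12 listed RNAs were in the table and 7 were tested. None was called upon silencing or with OHT in siRAD21 cells at 48 h, and their medians were -0.06 and 0.15. RMRP, RPPH1, SCARNA2 and SCARNA10, of this list, had means of 141, 152, 135 and 119 eRPKM, so they too lie towards the duplicate limit. SCARNA7, SCARNA5 and SCARNA6 had 93.2, 76.9 and 69.6. Values with duplicates accounted for are not given for this list, so its differences may be compressed.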

How the data were processed

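RNA-seq of U2OS-MycER cells was analysed in 18 libraries of 8 groups, taken from the labels. The authors depleted ribosomal RNA, sequenced 50-base single reads from a kit that does not mark strand, aligned them to hg19 and took out PCR duplicates. The deposited unit is eRPKM, the authors' RPKM computed over exons. Without strand, reads of overlapping and antisense genes cannot be told apart. Whether a poly(A) selection was part of library preparation, which bears on histone mRNAs, is not given in the sources used here. The submitters' processing notes name TopHat2 2.0.8, featureCounts 1.4.5 and SAMtools. Reads and exon lengths were recovered as whole numbers (tolerance 0.02) for all 22040 genes with a value above 0. They make up 99.97 to 99.98% of the depths.

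The test was limma 3.58.1 (R 4.3.3) on log2(eRPKM + 0.5) with 8 group means, a variance trend and no block, over 14993 genes with a mean of at least 1 eRPKM, with Benjamini-Hochberg adjustment. Called genes had an adjusted p below 0.05 and a log2 difference past 0.5. The test was also run on simulated reads, drawn without the limit on duplicates, so that run does not bear on members near the limit. Summaries and figures used Python 3.11.15, pandas 2.3.3 and matplotlib 3.10.9. Gene positions are from GENCODE 44 on GRCh37 (66 of 69 members placed), and promoters from RefSeq GRCh38.p14.

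Members, lists and tests were chosen with earlier results of these data known. Named were the highest member of each family, the 3 largest called rises and falls in RAD21 silencing and OHT at 48 h, tested HIST3 and HIST4 members, members with known polyadenylated transcripts and up to 5 called in the interaction. Other members were named after their values were seen. Residuals of same-numbered siCtrl and siCtrl OHT libraries at 48 h correlated at 0.258, 0.13 and 0.157. Differently numbered libraries were not compared, so whether replicate numbers mark pairs is not established. The study describes its replicates as biological. Fits were repeated with other pseudocounts, filters and scalings, voom on recovered reads, a replicate block, correction for duplicates and each library left out.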

Additional observations from a re-analysis of the deposited data

Results flagged for a closer look

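The effect of OHT at 48 h differed between siRAD21 and siCtrl cells, by the interaction term of the fit, for HIST1H2AE (0.75), HIST1H2AK (0.81), HIST1H2BA (1.48), HIST1H2BG (0.81) and HIST1H4I (0.68), in log2 units as the effect in siRAD21 minus that in siCtrl cells. All were positive, and 44 of the 47 tested members were. The effect of RAD21 silencing differed between 48 and 24 h for HIST1H1T (-1.92), HIST1H2AD (-0.84), HIST1H2AE (-1.12), HIST1H2AK (-0.59), HIST1H2BB (-0.98), HIST1H2BG (-1.34), HIST1H3C (-1.47), HIST1H3E (-0.69), HIST1H4I (-0.66) and HIST2H2BC (-0.72), as the effect at 48 h minus that at 24 h. All were negative. For HIST1H2BB and HIST1H3C the difference includes a rise at 24 h (1.83 and 1.47) that was smaller at 48 h (0.85 and 0.00), and for HIST1H1T a rise of 1.75 at 24 h and a value of -0.17 at 48 h. HIST1H2BG, HIST1H2AE and HIST1H4I were at -0.13, 0.05 and 0.08 at 24 h. The times differ in depth, and its part was not tested. Whether both were aligned and counted alike is not given in the sources used here.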

How the results depend on the processing

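Of 143 counts recomputed under the alternatives without leaving out a library, 113 stayed within 1.5 times the count as reported. Without the fold threshold the called members were 8 for RAD21 silencing at 24 h, 38 at 48 h and 24 for the difference of these times, 4 and 8 for OHT in siCtrl cells at 24 and 48 h, 3 and 36 for OHT in siRAD21 cells, 15 for siRAD21 OHT against siCtrl at 48 h, 21 for the interaction and 16 for culture time. Of all genes, 30.5% were lower and 27.2% higher by this rule for RAD21 silencing at 48 h. That share was not computed for the other comparisons, so their counts are not set against all genes. The same holds for the other alternatives and the fits without 1 library, except where shares with duplicates accounted for are given above. With duplicates accounted for the called members were 26 for RAD21 silencing at 48 h, 22 for the difference of times, 17 for OHT in siRAD21 cells and 11 for the interaction at 48 h, and 1 for OHT in siCtrl cells at 24 h. Quantile normalization gave 7 for RAD21 silencing at 48 h and 1 for OHT in siCtrl cells at 24 h. HIST1H4I, HIST2H2BE and HIST4H4 were then at -0.42, -0.47 and -0.43 upon silencing at 48 h and not called. The cause was not tested. A mean of at least 5 eRPKM, which leaves 40 members, gave 1 for RAD21 silencing at 24 h, 2 for OHT in siCtrl cells at 48 h, 0 and 6 for OHT in siRAD21 cells at 24 and 48 h, and 2 at each time for siRAD21 OHT against siCtrl. With all genes above 0, OHT gave 8 in siCtrl cells at 48 h and 2 in siRAD21 cells at 24 h. The latter comparison also gave 2 with a pseudocount of 1, only the groups compared, voom or the replicate block, and OHT in siCtrl cells at 24 h gave 1 with only the groups compared.

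The replicate block changed no other count by more than 1.5 times, and among the named genes it ended 1 call, that of HIST1H2BA upon RAD21 silencing at 48 h. Leaving out each library gave 3 to 5 and 8 to 13 called members for RAD21 silencing at 24 and 48 h, 0 to 1 and 4 to 6 for OHT in siCtrl cells, 0 to 3 and 7 to 13 for OHT in siRAD21 cells, 3 to 4 and 6 to 7 for siRAD21 OHT against siCtrl, 4 to 7 for the interaction, 6 to 15 for the difference of times and 5 to 8 for culture time. OHT in siRAD21 cells at 24 h had 0 called without siRAD21 replicate 1 or siRAD21 OHT replicate 1. No called difference of a named gene changed sign in any of these alternatives. Precision is limited by 2 or 3 libraries a group, by low reads for HIST1H2AA, HIST1H2BA, HIST1H1T and HIST1H3C, and by the limit on duplicates for abundant members.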

Other observations

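HIST2H3C, an H3 gene of the HIST2 cluster that was not tested, was at 0.945 to 1.36 eRPKM in each of the 8 libraries of 24 h and at 0 to 0.102 in the 10 of 48 h, with 105 reads in all against 2. The groups did not overlap, whichever siRNA or OHT was used. None of the 50-base stretches of its exon is unique in the genome, and whether both times were aligned and counted with the same settings is not given in the sources used here, so the gap cannot be read as a difference in expression. HIST1H4K and HIST1H4J, with 7.4% and 7.9% unique stretches, were at 8.26 to 12.1 and 11.2 to 18.7 eRPKM at 24 h and at 5.18 to 7.86 and 9.03 to 14.5 eRPKM at 48 h. HIST2H2AA4, with 0% unique stretches, had 11 reads in the 24 h and 4 in the 48 h libraries.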
